A study of Rattus norvegicus with 4 samples.

Results

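Carriers of amino acids, transmitters and related small solutes were followed in rat neural stem/progenitor cells (NSPCs) across 2 culture platforms and 2 media. The genes were taken by symbol: every entry that starts with Slc1a, Slc3a, Slc6a, Slc7a, Slc36a, Slc38a or Slc43a, without Slc1a2, Slc1a3 and Slc7a11. This gave 56 genes of 16881 symbols. One of them, Slc7a6os, is a neighbour of the carrier gene Slc7a6 and shares its symbol but is not a carrier. Wild-type (WT) NSPCs were grown on bare PUCL or on PUCL@CNT1, 2 platforms of a study on electroconductive scaffolds for neuronal specification. One library per platform was taken after 24 h in stemness-maintaining medium (maintenance medium below). A further library per platform came from cells kept for 1.5 d more, after a change to the neuronal medium B-27 Plus (differentiation medium below), so the medium and the time in culture cannot be told apart. The strain, age and sex of the rats, the origin of the cells and the composition of the platforms were not given in the sources used here. Each of the 4 combinations was 1 library, with no replicate.

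Amino acid carriers move solutes across the plasma membrane and the lysosomal membrane. Slc1 and Slc6 proteins are driven by sodium, and among them are the carriers that end transmission by glutamate, GABA, glycine and the monoamines. Slc7 light chains exchange amino acids and mostly need a Slc3 heavy chain to reach the surface, while Slc7 cationic carriers take up arginine and lysine alone. Slc38 proteins carry glutamine and small neutral amino acids, and some Slc36 proteins are coupled to protons. Slc43a1 and Slc43a2 let large neutral amino acids pass down their gradient. Several of these genes are known targets of ATF4, the transcription factor of the amino acid response, and the supply they give is sensed by the kinase complex mTORC1.

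Libraries held 6035848 to 6855984 counts, and 3' end reads were counted per gene. In the order PUCL and PUCL@CNT1 in maintenance medium, then PUCL and PUCL@CNT1 in differentiation medium (the order of all groups of 4 values below), the 56 genes held 9743, 9289, 8684 and 9051 counts. The entries Rn45s, Rn28s and Rn18s, which overlap, made up 11.3%, 9.03%, 13.4% and 8.46% of counts, so they were lower on PUCL@CNT1 in both media. Of 10 markers of neural stem/progenitor cells, 9 had 10 or more counts in a library and Msi1 was at 0 in all 4. Their summed level lay between 6769.3 and 11072.3 CPM (the usual depth-scaled count, here with edgeR's TMM scaling of the library totals). Vim had by far the most counts of the 9 (28449, 29953, 31121 and 50754) and Pax6 the fewest (53, 21, 246 and 19). All 5 microglia markers were at 0 in every library. The summed levels of other markers ranged from 55.5 to 140.6 CPM for neurons (7 genes), 481.0 to 992.7 for astrocytes (6), 829.8 to 1537.8 for the oligodendrocyte lineage (8), 2.8 to 29.5 for endothelium (6, with Pecam1, Cdh5 and Tek at 0), 1.9 to 34.4 for mural cells and fibroblasts (6, with Rgs5, Dcn and Lum at 0) and 5.9 to 19.2 for choroid plexus and ependyma (4, with Kl at 0).

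Of the 56 genes, 22 had 0 counts in all 4 libraries, or 39.3% against 33.7% of all symbols. A count of 0 allows up to 3 counts, which is 0.451 to 0.48 CPM per library. The genes at 0 included the carriers of noradrenaline (Slc6a2), dopamine (Slc6a3) and serotonin (Slc6a4), the neuronal glycine carrier Slc6a5, the proline carrier Slc6a7 and the GABA carriers Slc6a12 and Slc6a13. They also included the glutamate carrier Slc1a7, the neutral exchanger Slc1a4, the proton-coupled Slc36a1, Slc36a2 and Slc36a3, the sodium-coupled Slc38a5 and Slc38a8, the Slc6 carriers Slc6a14, Slc6a18, Slc6a19 and Slc6a20, and Slc7a12, Slc7a13, Slc7a14 and Slc7a15. Slc3a1 (0, 5, 0 and 0 counts) and Slc7a4 (0, 4, 0 and 9) had counts but fewer than 10 in every library. The other 32 genes had 10 or more counts in at least 1 library and were tested, and 18 of them had a mean of 50 or more counts over the 4 libraries. The 5 genes with the most counts (Slc3a2, Slc1a5, Slc7a1, Slc38a2 and Slc6a9) held 71.8% to 80% of the counts of the 56 genes in each library.

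Between media, genes with many reads for the transport of neutral and cationic amino acids did not move as 1 group. The heavy chain Slc3a2 and the light chain Slc7a5 were higher in both differentiation libraries. The glutamine and neutral amino acid carriers Slc38a2 and Slc1a5 and the arginine carrier Slc7a1 were lower in differentiation medium on both platforms. None of these differences passed the test over the 4 libraries. That test, edgeR's quasi-likelihood F test with platform and medium as additive terms and Benjamini-Hochberg adjustment over 10516 genes, called 0 of 32 genes for medium (smallest adjusted p 0.133) and 0 of 32 for platform. Over all genes tested it called 2.81% for medium and 0.456% for platform. At an unadjusted p under 0.05, 4 of 32 genes passed for medium (12.1% of all genes) and 2 of 32 for platform (6.95% of all genes). Limma-voom called 0 of 32 for either term. DESeq2 called 0 of the 25 genes to which it gave an adjusted p for medium, and gave one to only 2 genes for platform, with 0 called. With 1 library per group, 1 residual degree of freedom was left, so each p draws on a spread estimated mainly from the remaining genes. In bulk RNA, fewer cells of a type and less RNA per cell cannot be told apart.

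Single pairs of libraries were also sorted by size, with no test: a gene met the size rule if its scaled counts differed 2-fold or more and the 95% counting interval ended beyond 1.5-fold on the near side. Between media on PUCL, 6 of 32 genes were higher (16% of all genes tested) and 9 lower (15.2%). On PUCL@CNT1, 3 were higher (16.5%) and 11 lower (14.5%). For PUCL@CNT1 against PUCL, 7 were higher (12.1%) and 8 lower (13.9%) in maintenance medium, and 5 higher (15.2%) and 7 lower (15.6%) in differentiation medium. Of the 32 genes, 13 (40.6%) had a 0 in a library, against 21.3% of all genes tested.

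Among the 18 genes with a mean of 50 or more counts, 5, 6, 7 and 5 met the rule in the 4 pairs in that order (27.8%, 33.3%, 38.9% and 27.8%), against 22.1%, 22.3%, 16.5% and 20.9% of the 7438 genes with such a mean. Their median log2 ratios were -0.14 on PUCL and -0.09 on PUCL@CNT1 between media (-0.02 and 0.00 over the 7438 genes), and -0.06 in maintenance and -0.25 in differentiation medium between platforms (-0.01 and 0.01). The medium ratios had the same sign on both platforms in 14 of the 18 genes (77.8%, against 60.9% of the 7438). Of the 18, 6 were above 0 on both (33.3%, against 30.2%) and 8 below 0 on both (44.4%, against 30.7%). The platform ratios had the same sign in both media in 12 of the 18 (66.7%, against 55.2%).

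**Figure D1:**
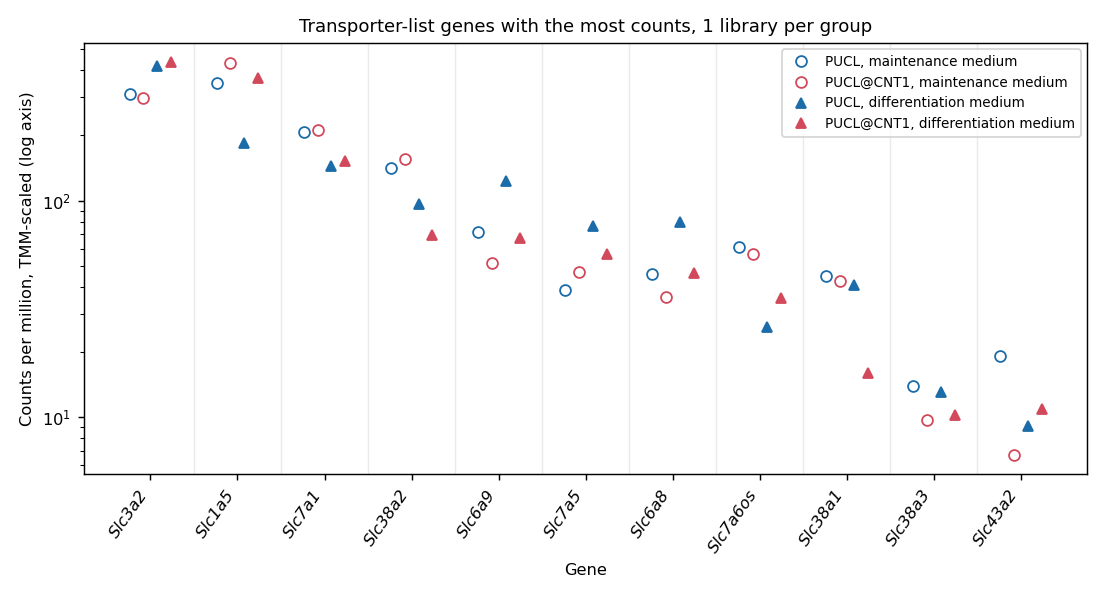
TMM-scaled CPM (log axis) of genes of the list with the most counts, with 1 point per library (open circles maintenance medium, filled triangles differentiation medium, blue PUCL, red PUCL@CNT1). Both triangles of Slc3a2 lie above both of its circles, those of Slc7a1 and Slc38a2 lie below, and for Slc6a9 and Slc6a8 the red point lies below the blue one in each medium.

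The heavy chain and its light chains form the large neutral and cationic amino acid exchangers. Slc3a2 (CD98), the heavy chain, stood at 309.8, 298.5, 415.8 and 434.5 CPM. Both differentiation libraries were above both maintenance libraries, by log2 0.42 (PUCL) and 0.54 (PUCL@CNT1) (fitted log2 0.48, SE 0.21, adjusted p 0.284). Between platforms its log2 ratios were -0.05 in maintenance and 0.06 in differentiation medium. Slc7a5 (LAT1), which exchanges glutamine for leucine and other large amino acids, stood at 38.5, 46.7, 76.7 and 56.7 CPM. Its media groups did not overlap either, but the log2 ratio was 0.99 on PUCL and 0.28 on PUCL@CNT1 (fitted log2 0.64, SE 0.41, adjusted p 0.632). The 2 genes thus differed in how far the platforms went together: the ratios of Slc3a2 were close to each other and those of Slc7a5 were not.

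The other light chains had few reads. Slc7a6 (y+LAT2), for cationic and neutral exchange, stood at 89, 33, 79 and 74 counts, with the low value on PUCL@CNT1 in maintenance medium (log2 ratio to PUCL -1.34, 95% counting interval -1.98 to -0.76). Slc7a8 (LAT2) was low in the same library, at 70, 9, 85 and 57 counts. Its log2 ratio between media was 0.31 on PUCL and 2.51 on PUCL@CNT1. Slc7a7 (y+LAT1) stood at 2, 13, 50 and 31 counts, so both differentiation libraries were above both maintenance libraries (log2 ratio 4.37 with a counting interval of 2.74 to 7.76 on PUCL, and 1.13 with 0.19 to 2.22 on PUCL@CNT1). Slc7a10 (Asc-1), which carries serine and glycine, stood at 45, 101, 32 and 67 counts and was the higher on PUCL@CNT1 in both media (log2 ratios 1.24 and 1.01). Slc7a9, the partner of the heavy chain Slc3a1, had 20 and 11 counts in maintenance medium and 0 in both differentiation libraries, a decrease of at least 6.54-fold on PUCL and 3.9-fold on PUCL@CNT1 with the 0 set at 3 counts (nearer 95% counting limits, log2 -2.27 and -1.42). Here and below, a bound against 0 sets the 0 at 3 counts and takes the other count as exact, so it covers neither that count's error nor the scatter between libraries. None of these 5 light chains passed the edgeR test for either term.

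The gene Slc7a6os, which is not a carrier, was read in full because of its symbol. It stood at 61.1, 56.8, 26.0 and 35.5 CPM, with medium ratios (log2) of -1.23 for PUCL and -0.68 for PUCL@CNT1 (fitted log2 -0.95, SE 0.45, adjusted p 0.349). Its neighbour Slc7a6 did not share this pattern, with ratios of -0.14 and 1.06. Whether the counts were made with regard to strand was not given in the sources used here, so reads of neighbouring genes on opposite strands may not be separated.

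Among ASCT and cationic carriers, Slc1a5 and Slc7a1 had the most reads and were lower in differentiation medium on both platforms, and neither passed the test. Slc1a5 (ASCT2), which brings in glutamine against other neutral amino acids, stood at 349.8, 432.4, 185.1 and 366.1 CPM. The PUCL differentiation library was the low one, and the media groups overlapped. Its log2 ratio between media was -0.92 (counting interval -1.02 to -0.82) on PUCL and -0.24 (-0.32 to -0.16) on PUCL@CNT1 (fitted log2 -0.58, SE 0.22, adjusted p 0.174). Between platforms PUCL@CNT1 was the higher, by a log2 ratio of 0.31 in maintenance and 0.98 in differentiation medium (fitted log2 0.64, SE 0.22, adjusted p 0.256). Without the PUCL@CNT1 differentiation library, and with platform left out of the fit, Slc1a5 was called as lower (log2 -1.08, adjusted p 0.0328), with the low PUCL library alone in differentiation medium. Leaving out the platform term alone gave an adjusted p of 0.547, and all alternatives together 0.0328 to 0.983.

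Slc7a1 (CAT1), the widespread arginine and lysine carrier, stood at 207.6, 212.6, 144.6 and 152.4 CPM. Both differentiation libraries were below both maintenance libraries, by log2 -0.52 (PUCL) and -0.48 (PUCL@CNT1) (fitted log2 -0.50, SE 0.26, adjusted p 0.432). Its platform ratios were 0.03 and 0.08. Slc7a3 (CAT3), the cationic carrier of neurons, stood at 6, 86, 28 and 112 counts and was higher on PUCL@CNT1 in both media, by log2 ratios of 3.81 (counting interval 2.74 to 5.41) and 1.94 (1.35 to 2.61). Its adjusted p for platform was 0.778. Slc7a2 (CAT2) stood at 38, 53, 42 and 0 counts, and the 0 on PUCL@CNT1 in differentiation medium was at least 18.8-fold below the maintenance library of that platform.

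Sodium-coupled Slc38 carriers had medium ratios below 0 on both platforms for 2 of the 3 genes with a mean of 50 or more counts. Slc38a2 (SNAT2), the carrier that cells raise when amino acids are short, stood at 140.7, 155.4, 96.4 and 69.5 CPM. Both differentiation libraries were below both maintenance libraries, by log2 -0.55 for PUCL (counting interval -0.70 to -0.40) and -1.16 for PUCL@CNT1. Its fitted log2 of -0.85 (SE 0.31) had the smallest adjusted p of the list for medium, 0.133, with 0.0968 to 0.929 under the 12 alternatives. Slc38a1 (SNAT1), a glutamine carrier of neurons and progenitors, stood at 44.7, 42.7, 40.8 and 15.9 CPM. Here 3 libraries were alike and the PUCL@CNT1 differentiation library was low, with a log2 ratio of -1.42 to maintenance medium and -1.35 to PUCL. The medium ratio on PUCL was -0.13, and the adjusted p for medium was 0.666. Slc38a3 (SNAT3), which exports glutamine from astrocytes, stood at 92, 61, 85 and 68 counts, with medium ratios of -0.08 and 0.07.

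The remaining Slc38 genes had 0 to 78 counts, and none passed the test. Slc38a9, the lysosomal carrier through which mTORC1 senses arginine, stood at 8, 42, 0 and 16 counts. It was lower in differentiation medium on both platforms (at least 2.61-fold on PUCL with a counting limit of log2 -0.74, and a log2 ratio of -1.45 on PUCL@CNT1) and higher on PUCL@CNT1 in both media (log2 2.40 in maintenance medium and at least 5.19-fold in differentiation medium), while its adjusted p was 0.945 for medium. Slc38a6 stood at 37, 4, 16 and 78 counts, Slc38a4 at 0, 12, 32 and 0, and Slc38a7, a lysosomal glutamine carrier, at 0, 0, 11 and 0. The ratios of Slc38a6 and Slc38a4 ran in opposite directions on the 2 platforms and in the 2 media.

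Promoter windows of 4 of these genes are shown because their medium ratios are among those described here and because ATF4 is known to act on carriers of this kind. The windows run from 250 bases before to 50 after the RefSeq start site, 5′ to 3′ on the gene's strand. Capitals mark TGATGNAA, the core of the amino acid response element bound by ATF4, or CACGTG, the E-box, each searched on both strands. No window shown held both.
Slc7a1, GRCr8 chr12:11664238-11664537, plus strand: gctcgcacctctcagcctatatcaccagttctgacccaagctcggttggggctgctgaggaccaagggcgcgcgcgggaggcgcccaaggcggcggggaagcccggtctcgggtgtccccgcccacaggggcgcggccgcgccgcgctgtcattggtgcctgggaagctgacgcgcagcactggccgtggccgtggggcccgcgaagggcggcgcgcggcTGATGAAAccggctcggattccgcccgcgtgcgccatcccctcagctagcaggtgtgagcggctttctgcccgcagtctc
Slc38a1, GRCr8 chr7:129681352-129681651, minus strand: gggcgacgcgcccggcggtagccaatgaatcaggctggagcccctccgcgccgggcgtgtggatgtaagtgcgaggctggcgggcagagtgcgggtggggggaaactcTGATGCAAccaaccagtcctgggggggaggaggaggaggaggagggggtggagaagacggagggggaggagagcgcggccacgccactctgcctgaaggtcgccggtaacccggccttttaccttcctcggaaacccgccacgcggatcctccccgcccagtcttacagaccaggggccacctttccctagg
Slc38a2, GRCr8 chr7:129742570-129742869, minus strand: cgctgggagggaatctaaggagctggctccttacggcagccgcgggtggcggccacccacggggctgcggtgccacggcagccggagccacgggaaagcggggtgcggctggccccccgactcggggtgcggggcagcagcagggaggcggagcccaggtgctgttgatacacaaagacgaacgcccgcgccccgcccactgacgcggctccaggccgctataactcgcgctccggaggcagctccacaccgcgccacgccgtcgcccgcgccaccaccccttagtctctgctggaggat
Slc7a5, GRCr8 chr19:66872363-66872662, minus strand: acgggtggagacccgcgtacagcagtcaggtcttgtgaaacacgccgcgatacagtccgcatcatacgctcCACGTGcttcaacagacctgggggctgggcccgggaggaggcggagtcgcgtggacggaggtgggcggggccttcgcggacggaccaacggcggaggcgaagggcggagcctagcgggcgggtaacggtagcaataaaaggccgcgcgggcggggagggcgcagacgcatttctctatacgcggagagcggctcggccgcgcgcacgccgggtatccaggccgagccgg

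The response element core was found in the windows of Slc7a1 (first base at -30 from the start site), Slc38a1 (at -142) and Slc1a4 (at -235), and the E-box in those of Slc7a5 (at -179) and 7 others (Slc1a4, Slc1a6, Slc1a7, Slc36a1, Slc38a7, Slc43a1 and Slc7a14). Of the 56 genes, 42 had an entry (43 windows), and 3 windows or 6.98% held the response element core against 3.98% of all 33469 windows. For the E-box the shares were 8 windows or 18.6% against 6.42%. Genes without an entry included Slc1a1, Slc1a5, Slc38a3, Slc43a3, Slc6a13, Slc6a15, Slc6a2, Slc6a20, Slc6a4, Slc7a13, Slc7a2, Slc7a3 and Slc7a4. Of the 3 genes with the core, Slc7a1 was lower in differentiation medium on both platforms, Slc38a1 on PUCL@CNT1 (its counting interval on PUCL, -0.38 to 0.11, held 0) and Slc1a4 was at 0. Slc38a2, with the smallest adjusted p for medium, had neither motif in its window. Sequence outside the windows was not searched, so a window without a motif does not show that the gene lacks it.

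Among Slc6 carriers of transmitters, osmolytes and creatine, Slc6a9, Slc6a8 and Slc6a11 had lower values on PUCL@CNT1 in both media, and none of them passed the test. Slc6a11 (GAT3), the GABA carrier of astrocytes, stood at 30, 0, 10 and 0 counts, so it was seen on PUCL alone, at least 9.47-fold above PUCL@CNT1 in maintenance and at least 3.43-fold in differentiation medium (counting limits for PUCL@CNT1 over PUCL, log2 -2.86 and -1.20). Markers of GABA neurons did not follow this order: Gad1 stood at 23, 0, 0 and 0 counts, Gad2 at 0, 35, 0 and 45, and Slc32a1 at 0 in all 4. The summed neuron markers (140.6, 122.6, 91.4 and 55.5 CPM) and the ribosomal RNA share were lower on PUCL@CNT1 in both media. In maintenance medium 5 of the 7 neuron markers were lower (5048 of all 10516 genes tested), with Snap25 at 191 counts on PUCL and 28 on PUCL@CNT1. Map2 (552 and 614), which had the most counts of the 7, and Syt1 (31 and 42) were higher there. In differentiation medium 6 of the 7 had platform ratios below 0 (5399 of all 10516 genes tested), among them Map2 (407 and 238) and Syt1 (29 and 7). Of these 6, Rbfox3 (0 and 0) and Stmn2 (1 and 1) had equal counts and fell below 0 only through the scaling. Tubb3 (25 and 62) was higher on PUCL@CNT1. The 6 astrocyte markers summed to 520.4, 502.0, 992.7 and 481.0 CPM, and to 416.8, 416.5, 383.4 and 366.6 without S100b (683, 534, 3939 and 761 counts). S100b was lower on PUCL@CNT1 in both media (log2 ratios -0.28 and -2.41) and was the only marker of the 6 to pass the edgeR test. Its adjusted p was 0.00578 for platform (fitted log2 -1.36) and 0.000279 for medium (fitted log2 1.50). Aldoc (349, 226, 473 and 148) was also lower on PUCL@CNT1 in both media and Gja1 (2388, 2357, 1963 and 2289) was not. The part of these in the Slc6a11 values was not tested.

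Slc6a9 (GlyT1), the glycine carrier of glia and progenitors, stood at 71.4, 51.7, 123.1 and 66.9 CPM. Within each medium PUCL was the higher, with log2 ratios of PUCL@CNT1 to PUCL of -0.47 and -0.88 (fitted log2 -0.67, SE 0.35, adjusted p 0.749). Within each platform differentiation medium was the higher, by 0.79 for PUCL and 0.37 for PUCL@CNT1 (adjusted p 0.578), and the media groups overlapped. Slc6a8, the creatine carrier, had a like pattern, at 46.1, 35.9, 79.4 and 46.2 CPM, with medium ratios of 0.78 and 0.36 and platform ratios of -0.36 and -0.78. Both genes had their highest value on PUCL in differentiation medium. The summed astrocyte markers were highest there too, but only with S100b, and the part of such cells in these values was not tested. Slc6a6, the taurine carrier, was at 0 in both maintenance libraries and at 20 and 26 counts in differentiation medium, at least 6.8-fold and 8.14-fold higher, with an adjusted p of 0.794.

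The 2 tested Slc6 carriers of neutral amino acids in neurons, Slc6a17 and Slc6a15, had their highest counts in maintenance medium, for Slc6a15 on PUCL alone. Slc6a17 (NTT4), a synaptic vesicle carrier, stood at 93, 94, 0 and 40 counts. Both maintenance libraries were above both differentiation libraries, at least 30.4-fold on PUCL and by a log2 ratio of -1.31 (counting interval -1.89 to -0.77) for differentiation against maintenance medium on PUCL@CNT1. The adjusted p was 0.417, and 0.0219 without the PUCL@CNT1 differentiation library and without a platform term, against 0.625 with only that term left out. Slc6a15, a brain carrier of branched-chain amino acids and proline, stood at 86, 0, 6 and 0 counts, so it was seen on PUCL alone. Of 7 neuron markers, 6 had medium ratios below 0 on PUCL (5065 of all 10516 genes tested) and 5 on PUCL@CNT1 (5354 of 10516). On PUCL, those of Tubb3 (log2 -0.13) and Syt1 (-0.07) were close to 0. None of the 7 passed the test. Snap25 stood at 191, 28, 50 and 0 counts and Stmn2 at 48, 22, 1 and 1, while Dcx (48, 39, 79 and 61) was higher in differentiation medium on both platforms and Tubb3 (28, 20, 25 and 62) on PUCL@CNT1. The part of neurons in the Slc6 values was not tested. The vesicular carriers of glutamate (Slc17a6, Slc17a7 and Slc17a8), of GABA (Slc32a1), of acetylcholine (Slc18a3) and Slc18a1 were at 0 in all libraries, and the monoamine carrier Slc18a2 stood at 152, 12, 88 and 61 counts.

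**Figure D2:**
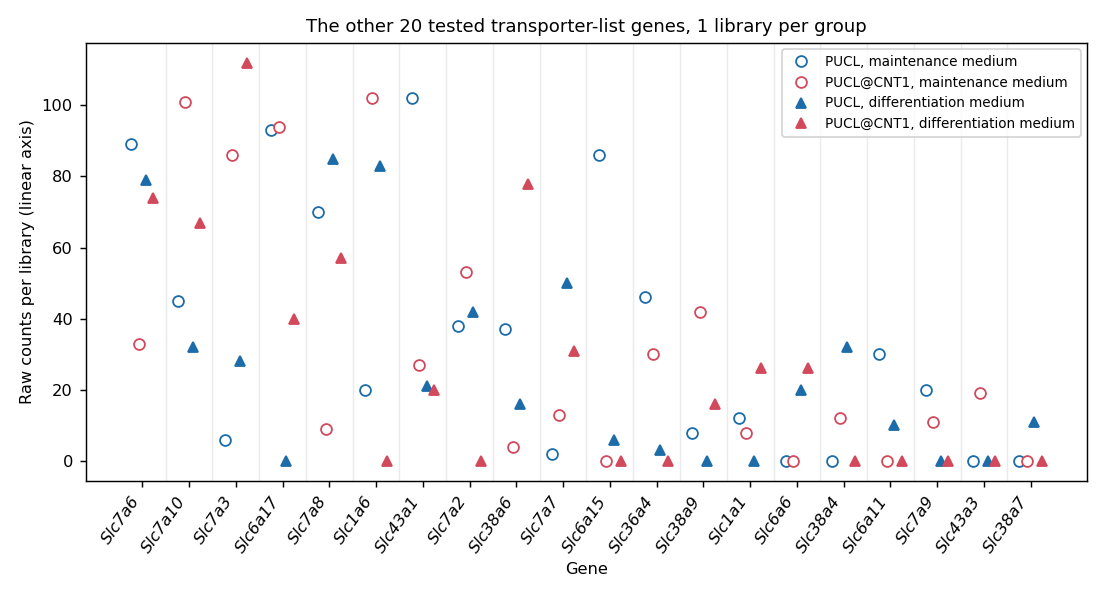
Raw counts per library (linear axis) of the other 20 tested genes, in falling order of mean level, with open circles for maintenance medium, filled triangles for differentiation medium, blue for PUCL and red for PUCL@CNT1. Single libraries stand far from the other 3 in many genes, as Slc7a8 does with 9 counts against 57 to 85, and zeros lie beside values such as 102 (Slc1a6) and 86 (Slc6a15).

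Glutamate carriers of the EAAT type had few reads. Slc1a1 (EAAT3), the neuronal glutamate and cysteine carrier, stood at 12, 8, 0 and 26 counts. Slc1a6 (EAAT4), known from Purkinje cells, stood at 20, 102, 83 and 0, so its ratios ran in opposite directions: between media it was higher on PUCL (log2 2.05) while PUCL@CNT1 was at least 36.2-fold lower. Among the genes left out by the rule, the glial glutamate carrier Slc1a3 stood at 2388, 1489, 4131 and 2075 counts (fitted log2 for platform -0.82, adjusted p 0.0457, past the threshold in 3 of 12 alternatives), and the cystine importer Slc7a11 at 95, 184, 465 and 662 (fitted log2 for medium 2.03, adjusted p 0.00107, past it in 9 of 12). Slc1a2 was at 0 in all 4.

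The tested Slc43 and Slc36 genes had their highest counts on PUCL in maintenance medium, except Slc43a3. Slc43a2 (LAT4), which lets branched-chain amino acids and phenylalanine pass, stood at 126, 42, 59 and 73 counts, and Slc43a1 (LAT3) at 102, 27, 21 and 20. In both genes the PUCL maintenance library was the high one and the other 3 were lower, by log2 ratios of -1.06 and -2.22 between media on PUCL and of -1.50 and -1.82 between platforms in maintenance medium. Slc43a3 stood at 0, 19, 0 and 0 counts. Slc36a4 (PAT4), a carrier of proline and tryptophan, stood at 46, 30, 3 and 0 counts, so both differentiation libraries were below both maintenance libraries (log2 ratio -3.70 with a counting interval of -6.24 to -2.27 for PUCL, and a decrease of at least 10.6-fold for PUCL@CNT1). Its adjusted p was 0.76, and none of the 3 Slc43 genes passed for medium or platform.

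**Figure D3:**
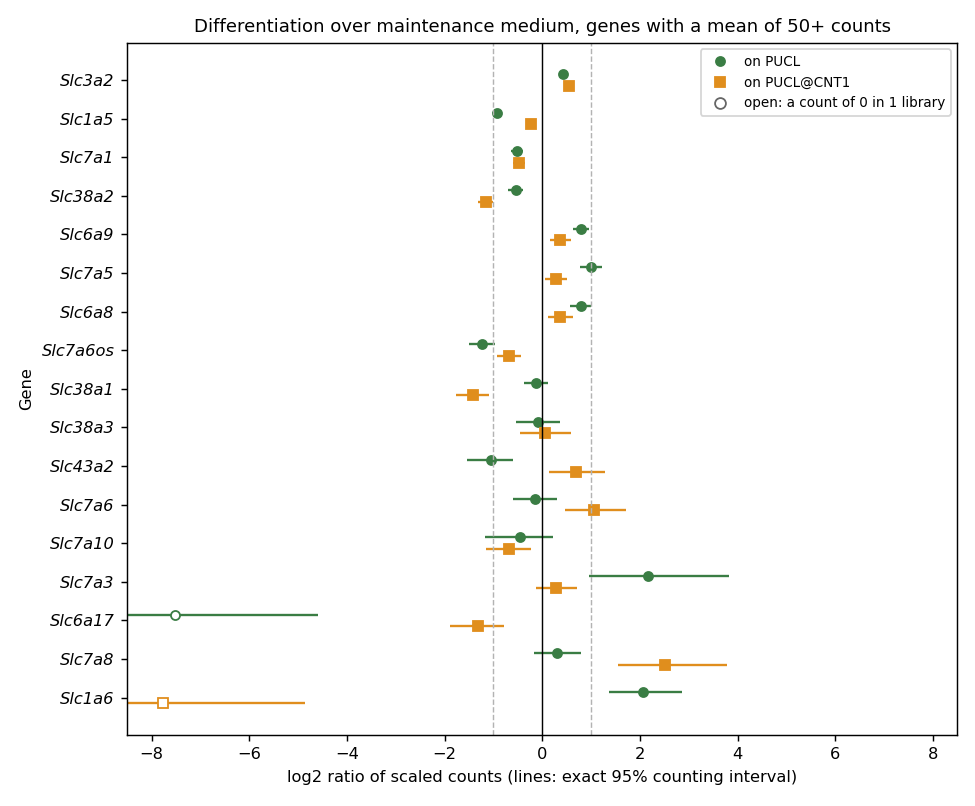
Log2 ratio of scaled counts, differentiation over maintenance medium, of genes with a mean of 50 or more counts, on PUCL (green circles) and PUCL@CNT1 (orange squares), with exact 95% counting intervals as lines and dashed lines at 2-fold. Slc3a2, Slc6a9, Slc7a5 and Slc6a8 lie to the right on both platforms and Slc1a5, Slc7a1 and Slc38a2 to the left; open points have a 0 in 1 library and depend on the 0.5 added to each count, and lines at the edge run on.

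In both medium pairs the size rule was met by 1 gene as higher, Slc6a6 (3.12% of 32, against 4.35% of all genes), and by 4 as lower, Slc36a4, Slc38a9, Slc6a17 and Slc7a9 (12.5% against 3.52%). Of these 5 genes only Slc6a17 had a mean of 50 or more counts. In both platform pairs it was met by 2 as higher on PUCL@CNT1, Slc38a9 and Slc7a3 (6.25% against 2.52%), and by 2 as lower (6.25% against 3.17%), among them Slc6a11. The medium pairs and the platform pairs use the same 4 libraries, so they are not separate evidence.

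**Figure D4:**
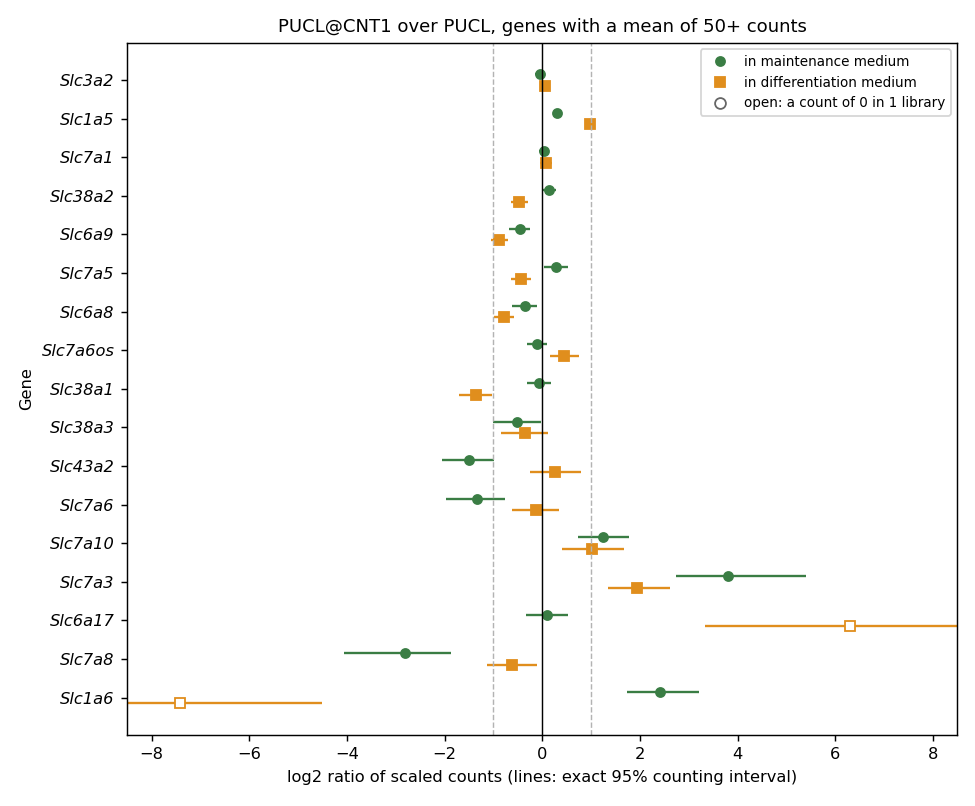
Log2 ratio of scaled counts, PUCL@CNT1 over PUCL, of the same genes in maintenance medium (green circles) and differentiation medium (orange squares), with exact 95% counting intervals as lines and dashed lines at 2-fold. Slc7a3 lies right of 1 in both media, while both points of Slc3a2 and Slc7a1 lie near 0; open points have a 0 in 1 library.

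Genes around the carriers were read from lists of the pathways they serve. Of 8 carriers in the gene list that are known as ATF4 targets, 7 were tested and 0 passed for medium or platform. Slc3a2, Slc6a9, Slc7a3 and Slc7a5 had medium ratios above 0 on both platforms and Slc1a5, Slc7a1 and Slc38a2 below 0. The cystine importer Slc7a11, which the symbol rule left out of the gene list, was not among the 8. As given above, Slc7a11 passed the edgeR test for medium (fitted log2 2.03, adjusted p 0.00107). Atf4 itself stood at 2475, 3705, 1475 and 2571 counts, lower in differentiation medium by log2 ratios of -0.72 and -0.62 (adjusted p 0.056) and higher on PUCL@CNT1 by 0.66 and 0.76 (adjusted p 0.11). Among 6 genes of the ATF4 arm, 1 fell for medium, Eif2ak4 (GCN2), the kinase that senses uncharged tRNA, at 542, 483, 170 and 155 counts (fitted log2 -1.69, SE 0.42, adjusted p 0.00981, past the threshold in 7 of 12 alternatives).

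The enzymes that make or break down the carried solutes were mostly outside the threshold. Of 4 tested genes of taurine and creatine synthesis, 1 rose for medium, Gamt, which completes creatine, at 240, 205, 641 and 507 counts (fitted log2 1.33, adjusted p 0.0396, past the threshold in 3 of 12 alternatives). Its medium ratios of 1.44 and 1.21 stood beside those of 0.78 and 0.36 for the creatine carrier Slc6a8. Gatm, the first enzyme of creatine synthesis, stood at 1005, 574, 1271 and 548 counts and was lower on PUCL@CNT1 in both media (log2 -0.73 and -1.25, adjusted p 0.128), as Slc6a8 was. None of 11 genes of glutamate and GABA metabolism, 9 of serine, glycine and asparagine synthesis, 6 of branched-chain breakdown or 27 of mTORC1 sensing passed for either term. Glutamine synthetase (Glul) stood at 570, 523, 911 and 533 counts and asparagine synthetase (Asns) at 497, 476, 298 and 595. Asns and the glutamine carrier Slc1a5 were both lowest on PUCL in differentiation medium. In the list that holds Asns, Gcsh was lowest there too, while Phgdh, Psat1, Shmt1 and Gldc were highest there. The median medium ratios of the mTORC1 sensing list were 0.16 and 0.07. Rptor, Depdc5, Nprl3, Rraga and Mlst8 of that list had ratios below 0 on both platforms. Sesn3, Gatsl3, Rragd, Lamtor1, Lamtor2, Lamtor5, Nprl2, Flcn and Tsc2 had ratios above 0 on both. The arginine sensor Slc38a9, with only 8, 42, 0 and 16 counts, had ratios below 0 on both.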

How the data were processed

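RNA from 4 libraries was read with a Lexogen QuantSeq kit from 500 ng of total RNA, per the labels' protocols. The authors deposited whole-number counts for each symbol, not normalized. Bowtie2, bedtools and rn6 are named, per the submitters' processing notes; versions, annotation and strand setting were not given in the sources used here. Rows of 1 symbol were summed (17048 entries, 16881 symbols). Genes with 10 or more counts in a library were kept (10516). Scaling was by TMM, and 0.5 was added to counts for log2 ratios of library pairs. Counting intervals were exact (95%, Clopper-Pearson) for 1 count as a share of both; the labels name no molecular identifiers, and these intervals hold only the error of counting. A bound against 0 sets the 0 at 3 counts and takes the other count as exact. The additive test was edgeR 4.0.16 in R 4.3.3 (87.2 prior and 1 residual degree of freedom), with p-values adjusted over all genes; SE was the log2 value over the root of F. DESeq2 1.42.0 and limma 3.58.1, other scalings, filters, fits with 1 term and fits without 1 library were alternatives. The code was tested on simulated data.

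The members and lists were chosen with earlier results of these data known. Genes given in full were the 12 with the highest mean CPM and those past the size rule in both pairs of a contrast; none was added by the edgeR threshold. Promoter windows were from RefSeq (GRCr8) and were used apart from the rn6 counts. One gene of the list enters the counts but is not reported here by name. The promoters shown were chosen after the values were seen.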

Additional observations from a re-analysis of the deposited data

Results flagged for a closer look

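Of the 32 tested genes, 3 met the size rule in opposite directions in the 2 pairs of a contrast, and the difference between the pairs was not tested. Slc1a6 (20, 102, 83 and 0 counts) had log2 ratios between media of 2.05 on PUCL and -7.77 on PUCL@CNT1, and between platforms of 2.40 in maintenance and -7.42 in differentiation medium. Slc38a4 (0, 12, 32 and 0 counts) had 6.05 and -4.73 between media, and 4.72 and -6.06 between platforms. Slc38a6 (37, 4, 16 and 78 counts) had -2.98 and 2.21 between platforms. Ratios of Slc1a6 or Slc38a4 with a 0 depend on the 0.5 added to each count and are no bounds. Such opposite pairs were seen in 4.18% of all genes tested between media (2 of the 32) and in 4.98% between platforms (3 of the 32).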

How the results depend on the processing

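No paired analysis was possible because each group held 1 library, with no replicate numbers; the additive test itself compares media within platforms. Leaving out each library in turn, with the other factor also left out, called 0 to 2 genes for medium and 0 for platform; the 2 were Slc1a5 and Slc6a17, without the PUCL@CNT1 differentiation library. Of 470 values of single genes under up to 12 alternatives, 418 kept their direction and were not seen to cross the threshold. These 418 include DESeq2 values without an adjusted p, which have no side of the threshold. A further 24 changed sign, all on leaving out a library. The 26 that no longer passed the threshold all belonged to Eif2ak4, Gamt, Slc1a3 and Slc7a11, the only genes of this set past it in the main fit. The rest were the Slc1a5 and Slc6a17 values just named. The fitted log2 ranges over left-out libraries that crossed 0 were, for medium, Slc38a3 (-0.26 to 0.26), Slc43a2 (-0.93 to 0.58), Slc6a11 (-6.89 to 5.35), Slc7a3 (-0.77 to 3.51), and, for platform, Slc36a4 (-7.62 to 2.32), Slc38a1 (-1.42 to 0.0079), Slc38a2 (-0.77 to 0.40), Slc3a2 (-0.27 to 0.26), Slc6a17 (-0.41 to 9.09), Slc6a6 (-6.33 to 6.68), Slc7a1 (-0.21 to 0.34), Slc7a5 (-0.57 to 0.43), Slc7a6os (-0.40 to 0.83), Slc7a9 (-6.34 to 5.54). The cause was not tested. Genes meeting the size rule in the 4 pairs, 15, 14, 15 and 12 of 32, were 5, 6, 7 and 5 with a mean of 50 or more counts, a limit chosen after seeing the data; at 3-fold with the interval beyond 2-fold, the medium pair on PUCL@CNT1 had 9. Genes of few reads are limited by depth.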
